A study of Mus musculus with 9 samples.

Results

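The O-GlcNAc cycle and the hexosamine pathway that feeds it were followed through 8 genes, chosen by symbol from the 54532 genes of the deposited count table: Ogt, Mgea5, Gfpt1, Gfpt2, Gnpnat1, Pgm3, Uap1 and Nagk. Messenger RNA had been sequenced from ST2 cells, a wild-type mouse bone marrow stromal line, kept for 72 h in 3 conditions with 3 libraries each. The control cells received vehicle, the second group 50 ng/ml recombinant human Wnt3a (rhWnt3a), and the third rhWnt3a together with 20 µM OSMI, an inhibitor of the O-GlcNAc transferase. Sample titles place rhWnt3a and OSMI together in the third group, whereas its treatment label names OSMI only, and the titles were followed. No group with OSMI alone was analysed here, so an effect of the inhibitor itself and an effect on the answer to rhWnt3a cannot be told apart. ST2 is a single cell line, and all groups share it.

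The hexosamine pathway turns fructose 6-phosphate, glutamine, acetyl-CoA and UTP into UDP-GlcNAc, a sugar donor of glycosylation. Gfpt1 and Gfpt2 encode the glutamine-fructose-6-phosphate aminotransferases at its entry, Gnpnat1 the acetyltransferase, Pgm3 the mutase and Uap1 the pyrophosphorylase that follow, while Nagk encodes a kinase that returns free N-acetylglucosamine to the pathway. OGT places single GlcNAc residues on serine and threonine of nuclear and cytoplasmic proteins, and O-GlcNAcase, encoded by Mgea5 (now named Oga), removes them.

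Between 16135898 and 17583945 reads were counted per library. The libraries of a group were unevenly spaced: vehicle replicate 3, rhWnt3a replicate 2 and replicate 3 of rhWnt3a with OSMI lay apart from the other libraries of their groups, with mean squared log2 differences of 0.373 to 0.454 against 0.111 to 0.119 between the remaining pairs. A single axis carried 54.8% of the variance within groups. On it vehicle replicate 3 and rhWnt3a replicate 2 both scored 0.49, and OSMI replicate 3 scored -0.43. Without these 3 libraries the remaining vehicle and rhWnt3a libraries all had negative scores and the remaining OSMI libraries positive scores. Differences with OSMI then cannot be told apart from the axis. The 3 were picked by their distance, so leaving them out lowers the spread within groups. P-values without them are no independent support. The stromal label was checked against 12 markers, of which Lepr and Thy1 did not pass the count filter. Col1a2, the most counted over the 9 libraries together, had 75424 to 161084 counts. Other markers of this list were low, with 14 to 80 counts for Nt5e and 11 to 49 for Eng. The range of Eng overlapped with that of Cd68, a marker of other cells. Col1a1 was higher in vehicle replicates 1 and 2, with 180228 and 183214 counts. Markers of other cell types were at or near 0. In the macrophage and leukocyte list the summed counts were at most 35 and Itgam had none in any library, Cd68 being the most counted with 5 to 30. Of the endothelial and epithelial markers none passed the filter, and Krt18 was at 0 throughout. All 5 tested genes of the canonical Wnt response, Axin2, Lef1, Tcf7, Nkd2 and Tnfrsf19, rose with rhWnt3a. Of all tested genes 2.92% were called higher there. Tcf7 passed the count filter only through the rhWnt3a libraries (13, 11 and 19 counts), and Tnfrsf19 only through libraries that received rhWnt3a. Axin2 (4, 14 and 10 counts with vehicle) and Lef1 (7, 6 and 13) also needed libraries that received rhWnt3a to pass. Nkd1, of the same list, did not pass, so the tally of 5 depends on the filter. Axin2 rose by a log2 fold change of 5.06 ± 0.36 (SE, edgeR quasi-likelihood test with Benjamini-Hochberg adjustment, adjusted p = 3.67e-05). Axin2, Nkd2 and Tnfrsf19 were also called above vehicle in the presence of OSMI, as were 4.84% of all tested genes. With the addition of OSMI to rhWnt3a all 5 had log2 fold changes below 0, with a median of -0.91. Nkd2 turned to 0.012 without OSMI replicate 1 and to 0.00232 without OSMI replicate 2. Tnfrsf19 was called lower (-2.31 ± 0.33 SE, edgeR adjusted p = 0.00582), in all 17 alternatives. Of all tested genes 3.05% were called lower in that comparison. The call of Tcf7 with rhWnt3a was lost without vehicle replicate 1, 2 or rhWnt3a replicate 3 (edgeR adjusted p = 0.0645 to 0.0672, with 9.65e-04 to 0.0672 over 17 alternatives).

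Per gene length, the 8 members spanned from the floor of detection to among the highest of the tested genes. Averaged over the 9 libraries, Ogt stood at 70.5 FPKM, a level per gene length and library total, above 95.9% of the 14004 tested genes. Mgea5 followed with 37.3 FPKM and Gfpt1 with 13.8. Uap1 at 6.15 and Nagk at 5.70 FPKM were neighbours whose ranges over the libraries, 4.76 to 8.04 and 2.96 to 8.81, overlapped. Pgm3 was lower at 2.96 FPKM, and Gnpnat1 at 0.139 FPKM lay above only 2.16% of tested genes. Gfpt2 was at the floor of detection. The order of Ogt above Mgea5 above Gfpt1 held in each of the 9 libraries. The level of Mgea5 rests on a listed length of 5024 bases, whereas all its exons in GENCODE M21 cover 8592, so its place on this scale depends on the length used.

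**Figure D1:**
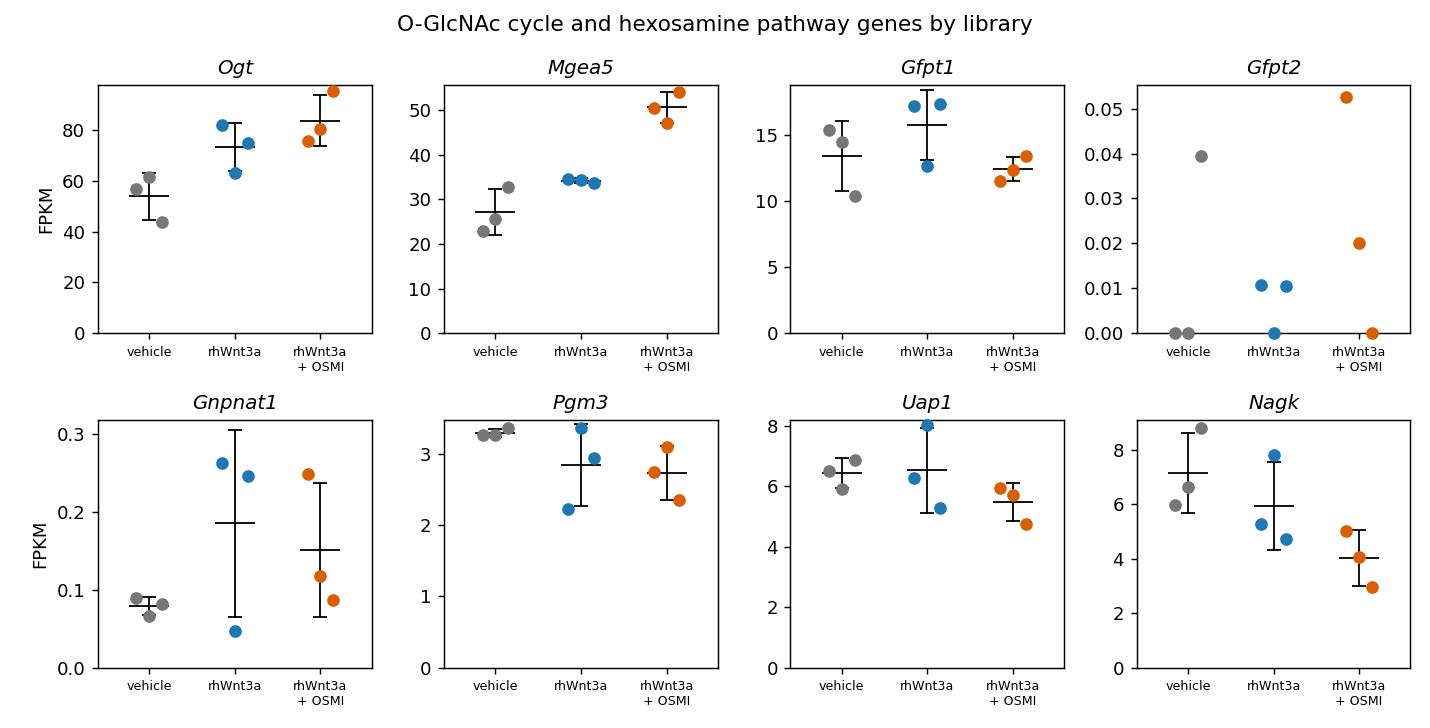
Levels of the 8 members in FPKM (y axes start at 0 and differ between panels) in each library of the 3 groups. Points are libraries, and horizontal lines with bars are means ± SD (n = 3), left out for Gfpt2, which had 5 counts or fewer in any library. Mgea5 in the libraries with OSMI lay above all others, at 47.3 to 54.1 FPKM.

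Ogt (ENSMUSG00000034160, chrX:101640060-101684351, plus strand of GRCm38) encodes the transferase itself, the target of OSMI. Its scaled level was 459.7, 501 and 360.1 CPM (counts relative to the scaled library total) in the vehicle libraries 1 to 3, 677, 515 and 619.5 CPM with rhWnt3a, and 625, 667 and 763 CPM with both agents. Every library with rhWnt3a, with or without OSMI, was above every vehicle library, while the groups with and without OSMI overlapped. The lowest values of the vehicle and rhWnt3a groups and the highest of the OSMI group came from the 3 libraries that lay apart. Against vehicle, Ogt was 1.56-fold higher with rhWnt3a and OSMI and the difference was called (log2 fold change 0.64 ± 0.17 SE, edgeR adjusted p = 0.0348). With rhWnt3a alone the difference from vehicle was 0.46 ± 0.17 (edgeR adjusted p = 0.165), and the step from rhWnt3a to rhWnt3a with OSMI was 0.18 ± 0.17 (edgeR adjusted p = 0.544), neither past the thresholds. That step was 0.288 without rhWnt3a replicate 1, 0.278 without OSMI replicate 1, 0.102 without rhWnt3a replicate 2, 0.1 without OSMI replicate 3 and -0.00858 without the 3 libraries that lay apart. Whether more RNA per cell or a shift in the cells that carry it lies behind such a difference cannot be told apart in bulk samples.

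The call of Ogt was a narrow one, made in 9 of 17 alternatives. It was lost with the replicate block (log2 fold change 0.641, edgeR adjusted p = 0.0968). Leaving out 1 library at a time, 3 of 9 fits made it. The edgeR adjusted p was 0.0824 without vehicle replicate 1, 0.0842 without vehicle replicate 3 and 0.0609 without rhWnt3a replicate 3. Without replicates 1, 2 and 3 of the OSMI group in turn it was 0.0562, 0.0722 and 0.0672 by edgeR, and the log2 fold change over the 9 fits ran from 0.515 to 0.782. Without the 3 libraries that lay apart the log2 fold change was 0.39, under the fold threshold of 0.5, with an edgeR adjusted p of 1.45e-04 (1.45e-04 to 0.0968 over 17 alternatives). Those 3 were picked by their distance in these data, so this low p is not independent support.

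Mgea5 (ENSMUSG00000025220, chr19:45750261-45783520, minus strand) encodes the enzyme that takes the modification off again. Its level was 115, 131 and 169 CPM with vehicle, 178, 175 and 173 CPM with rhWnt3a, and 261, 244 and 270.4 CPM with both agents. The 3 groups did not overlap at all, in the order vehicle, rhWnt3a, rhWnt3a with OSMI, although vehicle replicate 3 came close to the rhWnt3a libraries. Group means were 138 ± 27.8, 175 ± 2.67 and 259 ± 13.2 CPM (SD, n = 3). Mgea5 rose 1.87-fold between vehicle and rhWnt3a with OSMI (log2 fold change 0.90 ± 0.15 SE, edgeR adjusted p = 0.00356), a call made in all 17 alternative fits, including that without the 3 libraries that lay apart. The smaller steps were not called: 0.34 ± 0.15 with rhWnt3a (edgeR adjusted p = 0.240) and 0.56 ± 0.15 for the addition of OSMI (edgeR adjusted p = 0.0661). The step with OSMI was called in 5 of 17 alternatives, among them DESeq2 (adjusted p = 0.00871) and edgeR without vehicle replicate 3 (adjusted p = 0.0257, with 1.34e-05 to 0.187 over the alternatives). The step with rhWnt3a was called in 1 of 17, without vehicle replicate 3, at 0.52, and was 0.226 without vehicle replicate 1 (edgeR adjusted p = 0.609, with 2.19e-05 to 0.609 over the alternatives).

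The promoters of these 2 called members are shown because both rose in the same comparison. Of the 8 members, 7 had an entry in the RefSeq promoter table (GRCm38.p6), and Gnpnat1 had none. The 250 bases before the start site are printed from 5′ to 3′ on the strand of the gene, with matches to the searched motifs in capitals: CTTTGAT, bound by TCF/LEF factors, TGACGT, part of the cAMP response element, and CACGTG, an E-box, each on both strands, none of them part of another. The motifs were chosen after the Ogt promoter had been read.
Ogt, chrX:101639801-101640050, plus strand: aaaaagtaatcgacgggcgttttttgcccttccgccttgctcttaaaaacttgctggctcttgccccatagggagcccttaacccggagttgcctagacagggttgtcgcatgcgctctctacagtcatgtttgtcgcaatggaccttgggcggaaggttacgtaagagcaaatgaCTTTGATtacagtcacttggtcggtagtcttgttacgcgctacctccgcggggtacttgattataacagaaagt
Mgea5, chr19:45783554-45783803, minus strand: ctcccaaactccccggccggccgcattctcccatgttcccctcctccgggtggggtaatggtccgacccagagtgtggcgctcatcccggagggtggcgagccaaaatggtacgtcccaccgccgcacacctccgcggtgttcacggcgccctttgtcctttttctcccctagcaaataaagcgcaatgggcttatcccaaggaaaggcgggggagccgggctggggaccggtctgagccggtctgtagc
Ogt held 1 match to CTTTGAT, ending 68 bases before the start, and Mgea5 held no match to any of the 3 motifs. CTTTGAT occurred in 3.21% of all 32851 promoter windows of this length, TGACGT in 6.47% and CACGTG in 6.02%. A further start site of Ogt has a window that overlaps this one and contains the same match. Among the other members the search found 1 match, TGACGT in the Uap1 window. These are matches of letters, and binding was not measured here. By base composition the pair differed, with 49.6% G and C for Ogt and 64.4% for Mgea5.

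At the level of RNA, Ogt was set against Mgea5 as their ratio within each library, per length, which does not depend on how libraries are scaled. This ratio does not measure enzyme activity or O-GlcNAc. Its size depends on the listed lengths, which are the same in every library, and its differences between libraries do not. The ratio was 2.497, 2.395 and 1.33 with vehicle, 2.369, 1.841 and 2.234 with rhWnt3a, and 1.496, 1.706 and 1.762 with both agents. All libraries with OSMI were below all with rhWnt3a alone, whereas the vehicle libraries reached both above and below the other groups because of replicate 3. Between rhWnt3a and rhWnt3a with OSMI the mean log2 ratio went from 1.09 ± 0.19 to 0.72 ± 0.13 (SD, n = 3), a difference of -0.37 (two-sided exact permutation test, p = 0.1, the smallest p that 3 against 3 libraries allow, and 0.3 after Benjamini-Hochberg adjustment over 3 ratio tests). Against vehicle, the differences were 0.10 with rhWnt3a (exact permutation p = 1, adjusted p = 1) and -0.27 with rhWnt3a and OSMI (exact permutation p = 0.4, adjusted p = 0.6). Without vehicle replicate 3 the first of these turned to -0.19, and without the 3 libraries that lay apart to -0.09. The difference between OSMI and vehicle was -0.57 without vehicle replicate 3, -0.11 without vehicle replicate 1, -0.14 without vehicle replicate 2 and -0.61 without the 3 libraries. That between rhWnt3a with and without OSMI stayed between -0.479 and -0.297 with 1 library left out, and was -0.53 without the 3. A matching ratio of Gfpt1 to Gfpt2 could not be formed, as Gfpt2 had 0 counts in 4 libraries.

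**Figure D2:**
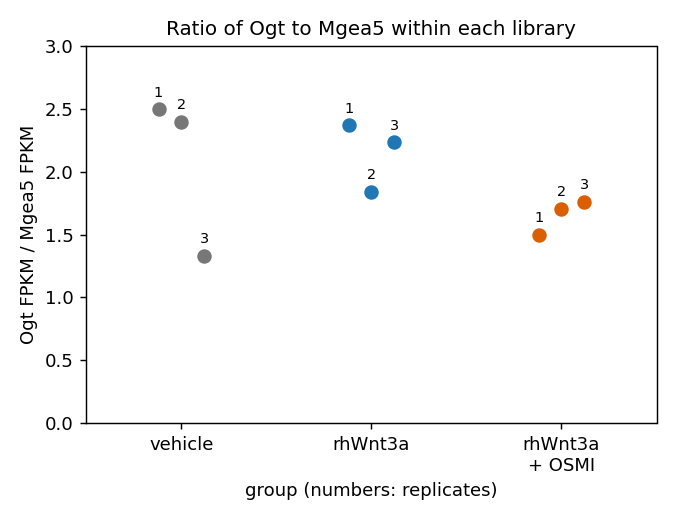
Ratio of Ogt to Mgea5 in FPKM (y axis, from 0) in each library, with replicate numbers beside the points. The OSMI libraries, at 1.496 to 1.762, lie below the rhWnt3a libraries, at 1.841 to 2.369, and vehicle replicate 3 at 1.33 is the lowest of all.

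At the entry of the pathway, Gfpt1 (ENSMUSG00000029992, chr6:87042846-87092197, plus strand) was the aminotransferase that these cells carried. It measured 155, 147 and 107 CPM with vehicle, 177, 128 and 179 CPM with rhWnt3a, and 119, 128 and 134 CPM with both agents. All 3 groups overlapped, and vehicle replicate 3 and rhWnt3a replicate 2 were the lowest of their groups. No comparison was called: the log2 fold change was 0.25 ± 0.18 with rhWnt3a (edgeR adjusted p = 0.545), -0.35 ± 0.18 for the addition of OSMI (edgeR adjusted p = 0.276) and -0.10 ± 0.18 between OSMI and vehicle (edgeR adjusted p = 0.728). The difference with rhWnt3a was 0.1 without vehicle replicate 3 and 0.388 without rhWnt3a replicate 2. That between OSMI and vehicle ran from -0.249 without vehicle replicate 3 to 0.0196 without vehicle replicate 1. Over all 17 alternatives the difference between OSMI and vehicle ran from -0.33 to 0.0196, and it was called in none. Without the 3 libraries that lay apart, the step with OSMI was -0.53 and was called (edgeR adjusted p = 5.37e-06, with 5.37e-06 to 0.479 over 17 alternatives), the single alternative in which Gfpt1 passed. In that fit the step with OSMI and the axis within groups cannot be told apart. Gfpt1 is known as a target of the unfolded protein response factor XBP1. The summed counts of 12 regulators and targets of that response were 46093, 48176 and 80589 with vehicle, 59497, 78676 and 59628 with rhWnt3a, and 76125, 76135 and 54631 with both agents. Hspa5 was the most counted of them, with 9973 to 28743 counts. Within the vehicle and rhWnt3a groups the library with the largest sum was the one with the lowest Gfpt1. With both agents the largest sum was in replicate 2 (76135, beside 76125 in replicate 1) and the lowest Gfpt1 in replicate 1. The part of this response in the Gfpt1 differences was not tested.

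Gfpt2 (ENSMUSG00000020363, chr11:49794178-49838613, plus strand), the second aminotransferase, had 0, 0 and 4 counts with vehicle, 1, 0 and 1 with rhWnt3a, and 5, 2 and 0 with both agents. It did not pass the count filter, and no fold change is given. A count of 0 allows up to 3 counts, or 0.172 to 0.183 CPM of the unscaled totals of the libraries at 0, for counting error only. The remaining 7 members were tested.

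The acetyltransferase gene Gnpnat1 (ENSMUSG00000037722, chr14:45376334-45404913, minus strand) gave only 7, 5 and 7 counts with vehicle, 21, 4 and 20 with rhWnt3a, and 20, 10 and 7 with both agents. Within each treated group the libraries ranged from the vehicle level to several times that level, so the groups overlapped. The log2 fold change with rhWnt3a was 1.22 ± 0.65 (edgeR adjusted p = 0.355). It was 1.67 and called without the 3 libraries that lay apart (edgeR adjusted p = 0.0208, with 0.0208 to 0.666 over 16 alternatives). Gnpnat1 reached the minimum count of 10 only in treated libraries, so a rise over vehicle is not independent of the filter. These counts are uncertain. Of the exon bases of Gnpnat1, 83.5% are shared with other genes in GENCODE M21, 81.9% on the opposite strand, where Styx, with 193 to 292 counts, is the gene that overlaps. Near-identical sequence in AC132351.1, Gm14698 and the overlapping Styx covered 92.4% of its longest coding transcript. Among 78 protein-coding genes with 80% or more of their exon bases shared in this way, 10.3% passed the count filter, beside 71.7% of 5210 genes with a smaller share and 48.8% of 16740 genes with none. These classes also differed in level, with a median of 0, 2.8 and 0.118 FPKM in that order. Whether reads were assigned by strand is not given in the sources used here, and the part of this overlap in the low count was not tested.

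Pgm3 (ENSMUSG00000056131, chr9:86554377-86571842, minus strand), the mutase of the next step, was steady in vehicle at 14.7, 14.8 and 15.4 CPM. It measured 10.2, 15.2 and 13.5 CPM with rhWnt3a, and 12.6, 14.3 and 10.5 CPM with both agents. All OSMI libraries were below all vehicle libraries by a small margin, and the rhWnt3a libraries overlapped with both. The difference between OSMI and vehicle was not called (log2 fold change -0.26 ± 0.18 SE, edgeR adjusted p = 0.356), and was -0.151 without OSMI replicate 3 and -0.17 without the 3 libraries that lay apart. Pgm3 shares 28.3% of its exon bases with a gene on the opposite strand, named Dopey1 in the table and counted 310 to 880 times, so its counts are uncertain too.

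Uap1 (ENSMUSG00000026670, chr1:170141938-170174957, minus strand), which makes UDP-GlcNAc itself, measured 26.2, 24.0 and 28.3 CPM with vehicle, 25.8, 32.6 and 21.7 CPM with rhWnt3a, and 24.5, 23.6 and 19.0 CPM with both agents. The groups overlapped in all comparisons, and rhWnt3a replicate 2 was the highest library. Its log2 fold changes were 0.03 ± 0.18, -0.25 ± 0.18 and -0.22 ± 0.18 for rhWnt3a, the addition of OSMI, and OSMI against vehicle (edgeR adjusted p = 0.956, 0.405 and 0.418). None was called. The first ran from -0.137 without rhWnt3a replicate 2 to 0.161 without rhWnt3a replicate 3. For the addition of OSMI it was -0.0683 without rhWnt3a replicate 2, -0.149 without OSMI replicate 3, -0.384 without rhWnt3a replicate 3 and 0.0143 without the 3 libraries that lay apart. Between OSMI and vehicle it was -0.117 without OSMI replicate 3 and -0.0995 without the 3 libraries.

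Nagk (ENSMUSG00000034744, chr6:83794982-83804018, plus strand), the salvage kinase, measured 28.03, 31.4 and 42.2 CPM with vehicle, 25.3, 36.8 and 22.7 CPM with rhWnt3a, and 24.1, 19.6 and 13.8 CPM with both agents. All OSMI libraries were below all vehicle libraries, vehicle replicate 3 being the highest of the 9 and OSMI replicate 3 the lowest. The log2 difference between OSMI and vehicle was -0.82 ± 0.26 and missed the threshold (edgeR adjusted p = 0.0567). It was called in 6 of 17 alternatives, by DESeq2 and with RLE scaling among them (adjusted p = 0.0197 and 0.0498, with 2.15e-04 to 0.160 over the alternatives) and also by edgeR without rhWnt3a replicate 2 (adjusted p = 0.0343), and stood at -0.48 without the 3 libraries that lay apart. With rhWnt3a the difference from vehicle was -0.26 ± 0.25 (edgeR adjusted p = 0.683), and the step with OSMI was -0.56 ± 0.26 (edgeR adjusted p = 0.226). The first was -0.0685 without vehicle replicate 3, -0.124 without rhWnt3a replicate 3, -0.15 without rhWnt3a replicate 1 and -0.495 without rhWnt3a replicate 2. The step with OSMI was -0.311 without rhWnt3a replicate 2, -0.372 without OSMI replicate 3 and -0.143 without the 3 libraries that lay apart.

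**Figure D3:**
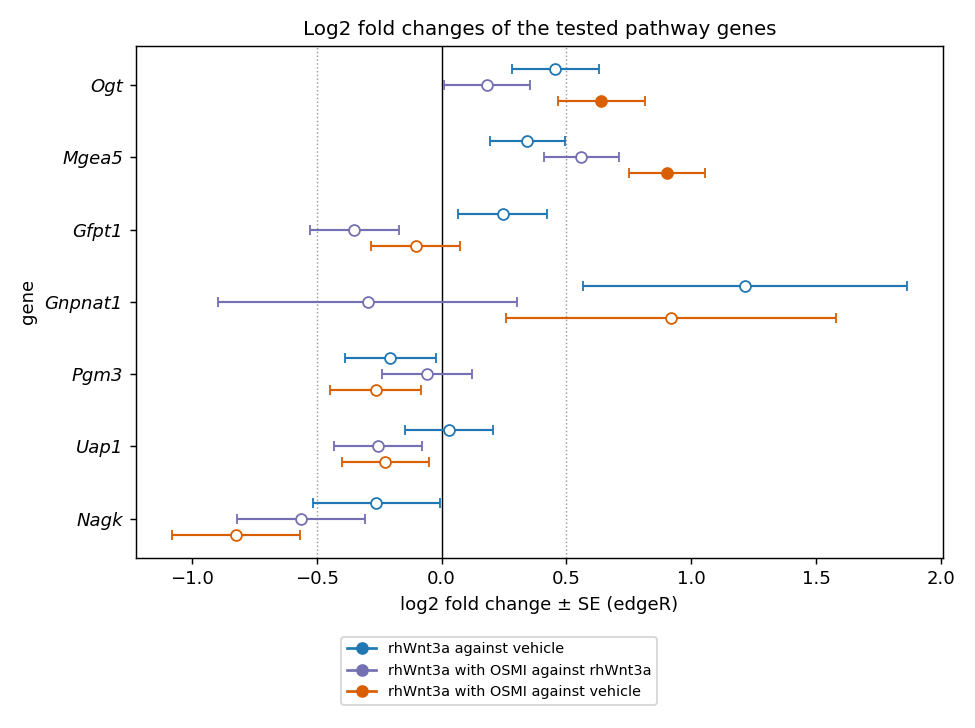
Log2 fold changes ± SE (x axis, edgeR) of the 7 tested members in the 3 comparisons. Filled points passed both thresholds, open points did not, and dotted lines mark a log2 fold change of 0.5 in either direction. The filled points are Ogt at 0.64 and Mgea5 at 0.90, both for rhWnt3a with OSMI against vehicle.

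The comparison of rhWnt3a with vehicle asks what Wnt stimulation did to the pathway genes. Of the 7 tested members 0 were called by edgeR and 0 by DESeq2, while 2, Ogt and Mgea5, had an unadjusted p under 0.05, as did 19.9% of all tested genes. In this comparison 8.78% of the 14004 tested genes were called, 2.92% higher and 5.86% lower. The groups did not overlap for 2 members, and for 26.4% of all tested genes. The median log2 fold change of the members was 0.25, beside 0.04 over all tested genes.

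The addition of OSMI to rhWnt3a asks what blocking the transferase changed. Again 0 of 7 members were called by edgeR, with 1 by DESeq2, Mgea5, which was also the 1 member with an unadjusted p under 0.05 in edgeR, beside 22.6% of all tested genes. Called were 4.74% of the tested genes, 1.69% higher and 3.05% lower. Mgea5 was the 1 member without overlap, against 33.7% of all tested genes. The members had a median of -0.25, beside -0.01 for all tested genes.

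For rhWnt3a with OSMI against vehicle, which shares its libraries with the other comparisons, 2 of 7 members were called, both higher. Of all tested genes 14.2% were called, 4.84% higher and 9.34% lower. Ogt, Mgea5, Pgm3 and Nagk did not overlap between these groups, the first pair higher and the second lower with OSMI, and the groups did not overlap for 38.8% of all tested genes. The median over the members was -0.10, beside -0.01.

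The genes whose pattern over the 9 libraries was closest to that of a member were sought among 9369 tested genes with an average log2 CPM above 3, by the root mean square difference of centred log2 CPM. For Ogt these were Eif4ebp2, Sim2 and Sec24c, at 0.069, 0.070 and 0.081, where Ogt itself varied by 0.32 about its mean. Mgea5 was closest to Nolc1, Noc2l and Wdr46, at 0.066, 0.087 and 0.097 with a variation of its own of 0.40. For Gfpt1 they were C920009B18Rik, Slc38a6 and Bcl2l11, at 0.069, 0.072 and 0.078, with a smaller variation of its own of 0.24. The median candidate differed by 0.41, 0.47 and 0.37 from Ogt, Mgea5 and Gfpt1. Gfpt2 was too low for such a search.

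Genes that recycle or break down amino sugars were described beside the pathway. Of 7 tested genes, 4 were called lower with rhWnt3a and OSMI than with vehicle and 0 higher, where 14.2% of all tested genes were called and 9.34% called lower, with a median log2 fold change of -0.72 beside -0.01 for all tested genes. They were Amdhd2 (-0.82), the deacetylase of N-acetylglucosamine 6-phosphate, Gnpda1 (-0.83), the deaminase that runs opposite to Gfpt1, and the lysosomal glycosidase genes Hexa (-0.80) and Naglu (-0.72). Gnpda1 measured 54.7, 53.6 and 50.0 CPM with vehicle and 36.3, 30.8 and 22.1 CPM with both agents, so that the groups were well apart (SE 0.17, edgeR adjusted p = 0.00988). Gnpda2, Renbp and the Uap1 paralog Uap1l1 were not called. The calls of Amdhd2, Gnpda1, Hexa and Naglu were made in all 17 alternatives. With rhWnt3a alone 1 of the 7, Naglu, was called lower (-0.66), where 5.86% of all tested genes were. With the addition of OSMI edgeR called 0 of them, where 4.74% of all tested genes were called and 3.05% called lower, with 3 of 7 at an unadjusted p under 0.05, beside 22.6% of all tested genes, and 0 called by DESeq2.

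**Figure D4:**
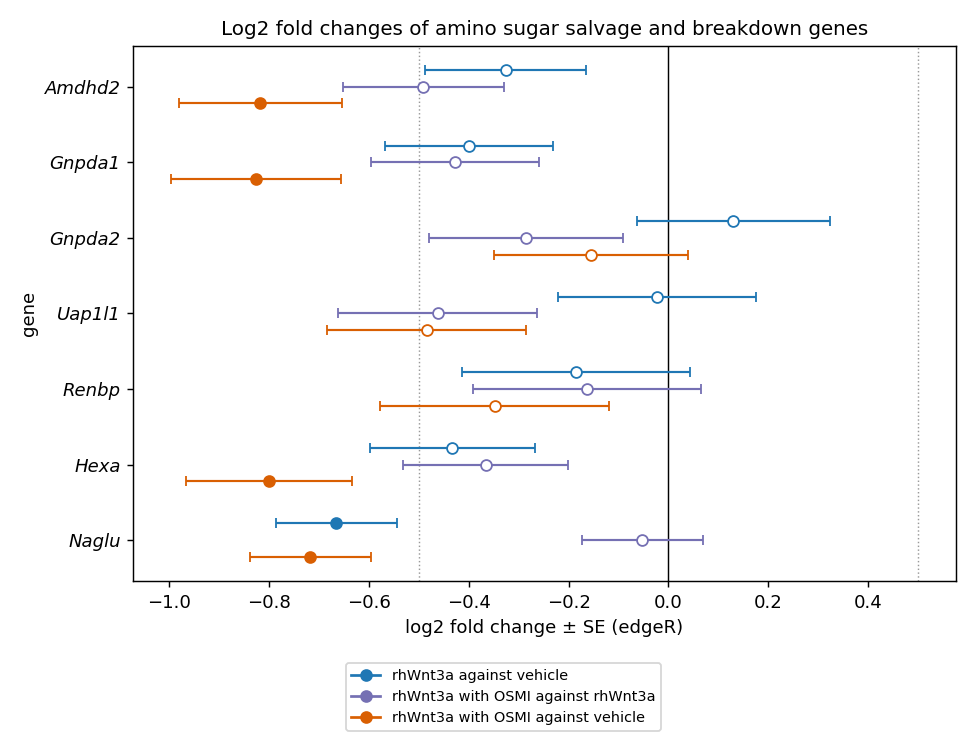
Log2 fold changes ± SE (x axis, edgeR) of 7 genes of amino sugar salvage and breakdown in the 3 comparisons, with filled points for called differences and dotted lines at 0.5 in either direction. For rhWnt3a with OSMI against vehicle 4 points are filled, between -0.83 and -0.72.

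Among users of UDP-GlcNAc, Has2, a hyaluronan synthase, was the 1 of 13 genes of N-glycan, hyaluronan and luminal O-GlcNAc synthesis to be called, where 4.74% of all tested genes were called against rhWnt3a and 14.2% against vehicle. It had 25, 17 and 18 counts with vehicle, 18, 18 and 22 with rhWnt3a, and 1, 3 and 2 with both agents. The last were at or under the floor of 3 counts, so no fold is given (edgeR adjusted p = 0.0052 against rhWnt3a and 0.00113 against vehicle). Has2 passed the count filter only through the groups without OSMI. Of 3 tested genes of the sialic acid branch, edgeR and DESeq2 called 0 in each comparison, and 0 had an unadjusted edgeR p under 0.05. Gne had the most counts over the 9 libraries together, though not in each library. With rhWnt3a, the addition of OSMI, and OSMI against vehicle, edgeR called 8.78%, 4.74% and 14.2% of all tested genes. An unadjusted edgeR p under 0.05 was found for 19.9%, 22.6% and 30.3%. Of 3 transporter genes, Slc35b4 being the most counted, edgeR and DESeq2 called 0 in each comparison, and 1 had an unadjusted edgeR p under 0.05 between OSMI and vehicle, where 30.3% of all tested genes had.

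In the supply of substrates, Gpi1 (0.996) and Hk2 (0.63), 2 of 4 glucose genes, rose with rhWnt3a, as did 2.92% of all tested genes. Of all tested genes 5.86% were called lower with rhWnt3a, 3.05% lower with the addition of OSMI, and 4.84% higher and 9.34% lower with OSMI than with vehicle. The call of Hk2 was lost in 1 of 8 alternatives that change the method or the set of libraries and, leaving out 1 library, without vehicle replicate 1, 2, 3 or rhWnt3a replicate 1, 3 or OSMI replicate 1 (edgeR adjusted p = 0.0531 to 0.142, with 1.09e-06 to 0.142 over 17 alternatives). Gpi1 was lower with OSMI than with rhWnt3a alone (-0.60), a call lost in 4 of 8 alternatives that change the method or the set of libraries (log2 fold change -0.49 without the 3 libraries that lay apart) and, leaving out 1 library, without vehicle replicate 1, 2 or rhWnt3a replicate 1, 2, 3 or OSMI replicate 1, 2, 3 (edgeR adjusted p = 0.0561 to 0.127, with 1.43e-05 to 0.127 over 17 alternatives). Hk2 was higher with OSMI than with vehicle (0.53), which was lost in 5 of 8 alternatives that change the method or the set of libraries (log2 fold change 0.411 without the 3 libraries that lay apart) and, leaving out 1 library, without vehicle replicate 1, 2, 3 or rhWnt3a replicate 3 or OSMI replicate 1, 3 (edgeR adjusted p = 0.0729 to 0.137, with 6.70e-04 to 0.137 over 17 alternatives). Acss2, an acetyl-CoA synthetase gene and 1 of 2 in its list, was lower than vehicle with rhWnt3a (-1.38), lost in 2 of 8 alternatives that change the method or the set of libraries and, leaving out 1 library, without vehicle replicate 1, 2 or rhWnt3a replicate 1, 2, 3 (edgeR adjusted p = 0.0645 to 0.106, with 1.09e-07 to 0.106 over 17 alternatives), and with both agents (-1.27), lost in 2 of 8 alternatives that change the method or the set of libraries and, leaving out 1 library, without vehicle replicate 1, 2 or OSMI replicate 1, 2, 3 (edgeR adjusted p = 0.066 to 0.104, with 2.61e-07 to 0.104 over 17 alternatives). Cad, 1 of 6 genes of UTP synthesis, was higher with OSMI than with vehicle (0.77), lost in 1 of 8 alternatives that change the method or the set of libraries and, leaving out 1 library, without vehicle replicate 1, 2, 3 or rhWnt3a replicate 3 or OSMI replicate 1, 2, 3 (edgeR adjusted p = 0.0521 to 0.108, with 7.33e-06 to 0.108 over 17 alternatives). Of 4 glutamine genes, Slc38a2 being the most counted, 0 were called by edgeR or DESeq2 and 0 had an unadjusted edgeR p under 0.05 in any comparison.

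Of 9 OGT partner proteins 1, Sin3a, was called higher with OSMI than with vehicle (0.53), beside 4.84% of all tested genes, a call lost in 5 of 8 alternatives that change the method or the set of libraries (log2 fold change 0.313 without the 3 libraries that lay apart) and, leaving out 1 library, without vehicle replicate 1, 2, 3 or rhWnt3a replicate 3 or OSMI replicate 1, 2, 3 (edgeR adjusted p = 0.0547 to 0.0997, with 9.34e-04 to 0.0997 over 17 alternatives). Of the 12 unfolded protein response genes 1 was called in each comparison, where 8.78%, 4.74% and 14.2% of all tested genes were. Dnajb9 was higher with rhWnt3a (0.90), lost in 1 of 8 alternatives that change the method or the set of libraries and, leaving out 1 library, without vehicle replicate 1, 2 or rhWnt3a replicate 1, 2, 3 or OSMI replicate 1, 2 (edgeR adjusted p = 0.0529 to 0.167, with 3.65e-08 to 0.167 over 17 alternatives). Atf6 was higher with OSMI than with vehicle (1.21) and than with rhWnt3a alone (0.89), the latter lost in 2 of 8 alternatives that change the method or the set of libraries and, leaving out 1 library, without rhWnt3a replicate 3 or OSMI replicate 1, 2 (edgeR adjusted p = 0.0693 to 0.0817, with 2.56e-07 to 0.0817 over 17 alternatives). Of 10 tested stromal markers, 3 fell with rhWnt3a, Vcam1, Cxcl12 and Ly6a, beside 5.86% of all tested genes, and 7 had log2 fold changes below 0, with a median of -0.21. With the addition of OSMI 3 fell, Vcam1, Nt5e and Ly6a, beside 3.05% of all tested genes, and 8 were below 0, with a median of -0.74. The call of Vcam1 with the addition of OSMI was lost without OSMI replicate 2 (edgeR adjusted p = 0.0525, with 1.34e-08 to 0.0525 over 17 alternatives). Called below vehicle with both agents were 5, Vcam1, Cxcl12, Ly6a, Nt5e and Col1a1, beside 9.34% of all tested genes, with 9 of 10 below 0 and a median of -1.02. The call of Col1a1 was lost in 2 of 8 alternatives that change the method or the set of libraries and, leaving out 1 library, without vehicle replicate 1, 2 or OSMI replicate 1, 2 (edgeR adjusted p = 0.0857 to 0.102, with 9.20e-13 to 0.102 over 17 alternatives).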

How the data were processed

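RNA of 9 ST2 libraries had been selected for poly-A and sequenced by Novogene. Per the labels, reads were handled with CASAVA, fastp, HISAT2 2.0.5 and featureCounts 1.5.0-p3 on mm10; strand setting and annotation are not given in the sources used here. The authors deposited whole-number counts per gene without normalization. The deposited FPKM values are counts per gene length and library total, as the authors computed them, by a formula not given in the sources used here. Columns of the authors' comparisons hold group means, fold changes, p-values and adjusted p-values and were not used. Of the 54532 genes, 54495 occur in GENCODE M21 and 53585 have the same start and end there.

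Counts were fitted in R 4.3.3 with edgeR 4.0.16 (filterByExpr, minimum count 10 and minimum total 15, leaving 14004 genes; TMM scaling; glmQLFit over 3 groups without covariates; two-sided glmQLFTest; Benjamini-Hochberg adjustment over tested genes). A call needed an adjusted p below 0.05 together with more than 0.5 on the log2 fold scale, up or down. CPM were relative to TMM library sizes, and log2 CPM had 2 counts added as a prior. The common dispersion was 0.0452. The ratio of Ogt to Mgea5 was compared by exact permutation in scipy 1.17.1. Near-identical transcripts (97% identity over 100 bases) were searched with BLAST 2.17.0. Alternatives were DESeq2 1.42.0, RLE scaling, other filters and library sets, no fold threshold, a replicate block, offsets for length and GC, and the first axis of within-group deviations as a covariate.

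The text names all members, called genes of the other lists or, where none was called, the most counted gene, and the genes most like Ogt, Mgea5 and Gfpt1. Some genes of the lists are not reported here, and list counts leave them out. Members and lists were chosen with earlier results of these data known. The study calls its replicates biological; how the cultures were kept apart is not given in the sources used here, and p-values measure the spread between these samples.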

Additional observations from a re-analysis of the deposited data

How the results depend on the processing

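Mgea5 was called for rhWnt3a with OSMI against vehicle in every alternative tried. For this comparison 2 members were called; it was 1 with the replicate block and 1 without the 3 libraries that lay apart, and 1 to 3 when each library was left out in turn. It was 3, with Nagk, by DESeq2, with RLE scaling, with every gene of at least 1 count, with the offsets for length and GC and with the within-group axis as a covariate, and 2 with 6 libraries in the fit. For the addition of OSMI, where none was called, it was 1 by DESeq2 and 1 with offsets for length and GC (Mgea5 in both), 2 without the 3 libraries (Mgea5 and Gfpt1), 2 with the within-group axis as a covariate (Mgea5 and Nagk), and 0 to 1 with each library left out. For rhWnt3a against vehicle, also with none, it was 1 without the 3 libraries (Gnpnat1) and 0 to 1 with each library left out. Dropping the fold threshold gave 0, 0 and 2 members. Calls over all tested genes changed between these fits too. For the addition of OSMI they went from 664 of 14004 to 1789 of 14111 without the 3 libraries and 2723 of 14004 with the axis. For OSMI against vehicle they went from 1986 of 14004 to 3351 of 14111 and 3581 of 14004. For rhWnt3a against vehicle they went from 1230 of 14004 to 2557 of 14111 without the 3 libraries. The axis was itself taken from these data.

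Genes called in rhWnt3a against vehicle, the addition of OSMI, and OSMI against vehicle numbered 1230, 664 and 1986. They were 809, 233 and 1297 with the replicate block, 2557, 1789 and 3351 without the 3 libraries, and 2034, 2723 and 3581 with the axis as a covariate. Leaving out each library gave 716 to 1506, 203 to 764 and 1218 to 2328. The addition of OSMI also moved to 1241 with DESeq2, 1481 with every gene of at least 1 count, 345 with 6 libraries in the fit and 1060 with the offsets. The replicate block lost the calls of Hk2, Acss2 and Dnajb9 with rhWnt3a, and of Gpi1 and Atf6 for the addition of OSMI. For OSMI against vehicle it lost those of Ogt, Hk2, Acss2, Cad, Sin3a and Col1a1. The causes were not tested.

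Same-numbered libraries deviated together with correlations of -0.49 to 0.44, so the numbers were not taken to pair samples. With 3 samples in each group a replicate block cannot change the mean differences in the log2 ratio of Ogt to Mgea5, 0.10, -0.37 and -0.27, only their p (exact sign-flip permutation p = 1, 0.25 and 0.5, of which 0.25 is the smallest that 3 pairs allow). The first, for rhWnt3a against vehicle, turned to -0.0882 without the 3 libraries and ran from -0.195 to 0.26 with each library left out. The ratio of Gfpt1 to Gfpt2 was not run because Gfpt2 was at 0 in 4 libraries.

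Further signs turned, all in differences that were not called. Without the 3 libraries, the log2 fold change of Uap1 was -0.11 with rhWnt3a, and for the addition of OSMI it was -0.00858 for Ogt, 0.177 for Pgm3 and 0.0143 for Uap1. With the offsets the addition of OSMI gave 0.00157 for Naglu, -0.00986 for Slc35b4 and -0.0925 for Acss2. With each library left out, log2 fold changes with rhWnt3a ran from -0.14 to 0.16 for Uap1, -0.19 to 0.12 for Has2, -0.12 to 0.0065 for Slc38a2 and -0.117 to 0.0385 for Sin3a. For the addition of OSMI they ran from -0.828 to 0.0615 for Gnpnat1, -0.195 to 0.0896 for Pgm3, -0.0657 to 0.0155 for Naglu, -0.204 to 0.0421 for Hk2, -0.308 to 0.012 for Nkd2 and -0.15 to 0.52 for Cd68. Gne was -0.00124 with rhWnt3a, -0.109 for the addition of OSMI and -0.11 for OSMI against vehicle without the 3 libraries, and -0.00655 with 6 libraries and -0.0076 with the offsets for rhWnt3a. With each library left out, these Gne values ran from -0.0258 to 0.0886, -0.0451 to 0.24 and -0.0215 to 0.263. For OSMI against vehicle Gfpt1 ran from -0.249 to 0.0196 with each library left out.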
